A study of Mus musculus with 6 samples.

Results

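The binding of the transcription factors Gli3 and Hand2 in the embryonic mouse face was examined near 40 genes of the bone morphogenetic protein (BMP) and transforming growth factor-β (TGF-β) pathways. They are 12 BMP and GDF ligands, 5 TGF-β and activin ligands, 9 receptors, 6 antagonists and 8 Smads, chosen by name from 21951 protein-coding genes. A gene was credited with every peak whose midpoint lay in its window, the gene body plus 50 kb on each side, and the remaining 21911 protein-coding genes served as the background. Chromatin immunoprecipitation with sequencing (ChIP-seq) had been run with the anti-FLAG M2 antibody on pooled tissue of CD1 embryos. The groups compared, of 2 replicates each, were Gli3 in the mandibular prominence (MNP, the tissue that forms the lower jaw) of Gli3 3XFlagbio embryos, Gli3 in the whole face of Gli3 3XFlagbio embryos, and Hand2 in the MNP of embryos labelled Hand2 3XFlagbio (the study's methods name this allele as a 3xFlag tag). The study's whole face took in the frontonasal, maxillary and mandibular prominences, so the whole-face samples include the MNP. The sample labels give embryonic day 11.5 for all 6 samples. The tags sit in the endogenous genes, and the tissue was not sorted, so binding in different cell types cannot be told apart, and with no expression in these files the tissue labels could not be set against marker genes. The merged peak lists hold 5427 Gli3 peaks for the MNP, 5752 Gli3 peaks for the whole face and 59583 Hand2 peaks for the MNP. They carry no peak height and no depth, and the replicates are merged in them, so no value below has a replicate error.

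Ligands of both families bind paired type I and type II serine/threonine kinase receptors, which phosphorylate receptor Smads; these join the common partner Smad4 and enter the nucleus. Secreted antagonists such as Noggin hold BMP ligands away from their receptors, and the inhibitory Smads, Smad6 and Smad7, damp the signal inside the cell. In the face the pathway is known for its part in outgrowth of the prominences and in patterning of the jaw skeleton and teeth. Gli3 is a transcriptional effector of Hedgehog signalling, and Hand2 is a basic helix-loop-helix factor of the distal mandibular mesenchyme that binds E-boxes.

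Of 28 Gli3 MNP peaks near these genes, 6 held a Gli-binding motif (GBM), and a stretch of each is shown because these are the places where a Gli word in the DNA coincides with a Gli3 MNP peak at a pathway gene. The words searched on both strands were the canonical GACCACCC (cGBM), the divergent GACCTCCC (dGBM) and the Hand-type E-box CAGATG. The cGBM was in 4 of the 28 peaks (14.3%, whole MNP list 13.3%) and the dGBM in 3 (10.7%, whole MNP list 6.6%), and neither difference was tested. Capitals mark the searched words or their reverse complements. Each stretch is printed on the strand that reads its cGBM forwards, or its dGBM where it has no cGBM, from mouse build mm10.
Bmp7 intron, chr2:172888282-172888401, minus strand: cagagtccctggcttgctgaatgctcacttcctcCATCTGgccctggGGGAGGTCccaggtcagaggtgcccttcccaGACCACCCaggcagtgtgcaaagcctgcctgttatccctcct
Smad6 upstream, chr9:64058297-64058416, minus strand: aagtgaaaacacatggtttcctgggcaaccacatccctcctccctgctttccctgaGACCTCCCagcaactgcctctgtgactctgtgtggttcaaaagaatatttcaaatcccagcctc
Smad6 downstream, chr9:63950517-63950636, minus strand: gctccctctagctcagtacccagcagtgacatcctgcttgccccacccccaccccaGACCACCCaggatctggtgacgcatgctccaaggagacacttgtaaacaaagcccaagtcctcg
Tgfbr3 downstream, chr5:107088596-107088715, plus strand: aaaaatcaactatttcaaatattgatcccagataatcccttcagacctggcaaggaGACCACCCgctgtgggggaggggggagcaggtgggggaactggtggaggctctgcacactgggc
Tgfb1 first kilobases, chr7:25688532-25688561, minus strand: ttctggaaagaGACCACCCagcgagccctg
Smad1 first intron, chr8:79398876-79398995, minus strand: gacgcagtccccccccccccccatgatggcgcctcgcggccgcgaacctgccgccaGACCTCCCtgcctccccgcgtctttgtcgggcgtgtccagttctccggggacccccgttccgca

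The Bmp7 stretch was the only 1 of the 6 with more than 1 kind of word. It lay in a peak of all 3 lists, 52034 bp downstream of the Bmp7 transcription start site (TSS), inside an intron, and it held all 3 words. The cGBM and the dGBM were separated by 23 bases, and the dGBM and the E-box by 7 bases. The upstream Smad6 stretch was also in all 3 lists and held a dGBM. The stretches of Tgfb1, of Tgfbr3 and downstream of Smad6 were in both Gli3 lists, outside Hand2 peaks, and each held a cGBM. The Smad1 stretch was in a Gli3 MNP peak that overlapped Hand2 and was absent from the whole-face list. The Tgfb1 stretch is cut to 30 bases because it runs into an exon of a non-coding Tgfb1 transcript. The Tgfbr3 stretch lies beyond the 3′ end of Tgfbr3, 200977 bp from its TSS, and the closest TSS belonged to Cdc7.

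Across the 40 genes, Hand2 peaks, from the longest list, were the most frequent. At least 1 Hand2 peak lay in the window of 37 of 40 genes (92.5%, Wilson 95% interval 80.1 to 97.4, which like all intervals here covers counting error only), against 82.6% of the other protein-coding genes, a share inside that interval. Gli3 MNP peaks were near 19 genes (47.5%, interval 32.9 to 62.5), against 43.3% of other genes, so the share was close to the background. Gli3 whole-face peaks were near 17 genes (42.5%, interval 28.5 to 57.8), against 32.7% of other genes, and the background share lay inside the interval. Split by an overlap of at least 1 bp with Hand2, 15 genes had a Gli3 MNP peak with Hand2 (37.5%, background 29.8%) and 7 had 1 without Hand2 (17.5%, background 22.1%). In the whole-face list, 10 genes had a Gli3 peak with Hand2 (25%, background 16.7%) and 10 had 1 without (25%, background 21.5%). Hand2 was profiled in the MNP only, so this split sets whole-face Gli3 peaks against Hand2 peaks of the MNP. None of the 4 split shares had an interval that left its background outside. The differences depended on how peaks were credited. That for all Gli3 MNP peaks, 4.23 percentage points, was -3.62 with windows of 100 kb and -0.312 without promoter peaks, but 14 with windows of 20 kb, 17.9 in gene bodies alone, 26 by the nearest TSS and 30.4 by the nearest gene on each side (65% of the 40 genes against 34.6%). The rule of the nearest gene on each side does not credit a gene whose body holds the peak midpoint. That for Gli3 MNP peaks with Hand2, 7.74 points, was 0.424 where Hand2 had to cover 50% of the Gli3 peak (22.5% against 22.1%). For Hand2 the shares were 92.5% against 70.9% with windows of 20 kb and 75% against 41.6% in gene bodies. The signs for all whole-face Gli3 peaks and for Hand2 did not change under the 8 alternatives run for each. Among these, the limit to peaks that name both replicates left out no peak, so its sign could not change.

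The pathway and the other genes differed more in the number of Hand2 peaks than in their presence, and the difference was not tested. The median was 6 Hand2 peaks per pathway gene and 3 per other gene, and the highest was 29. The pathway windows were longer, with a median of 136 kb against 117 kb. Per Mb of window the medians were 45.9 and 22.2 Hand2 peaks, so the ratio stayed near 2. For 52 further pathway genes, described in the closing section, the median was 5 Hand2 peaks per gene and the highest was 20. The higher count was therefore not particular to the 40 genes. The median number of Gli3 peaks was 0 in the 40 genes and in the other protein-coding genes, in both Gli3 lists. Pooled over all windows, Gli3 MNP peaks numbered 4.36 per Mb in the 40 genes and 4.7 in other genes. Gli3 whole-face peaks numbered 4.98 and 3.28 per Mb.

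**Figure D1:**
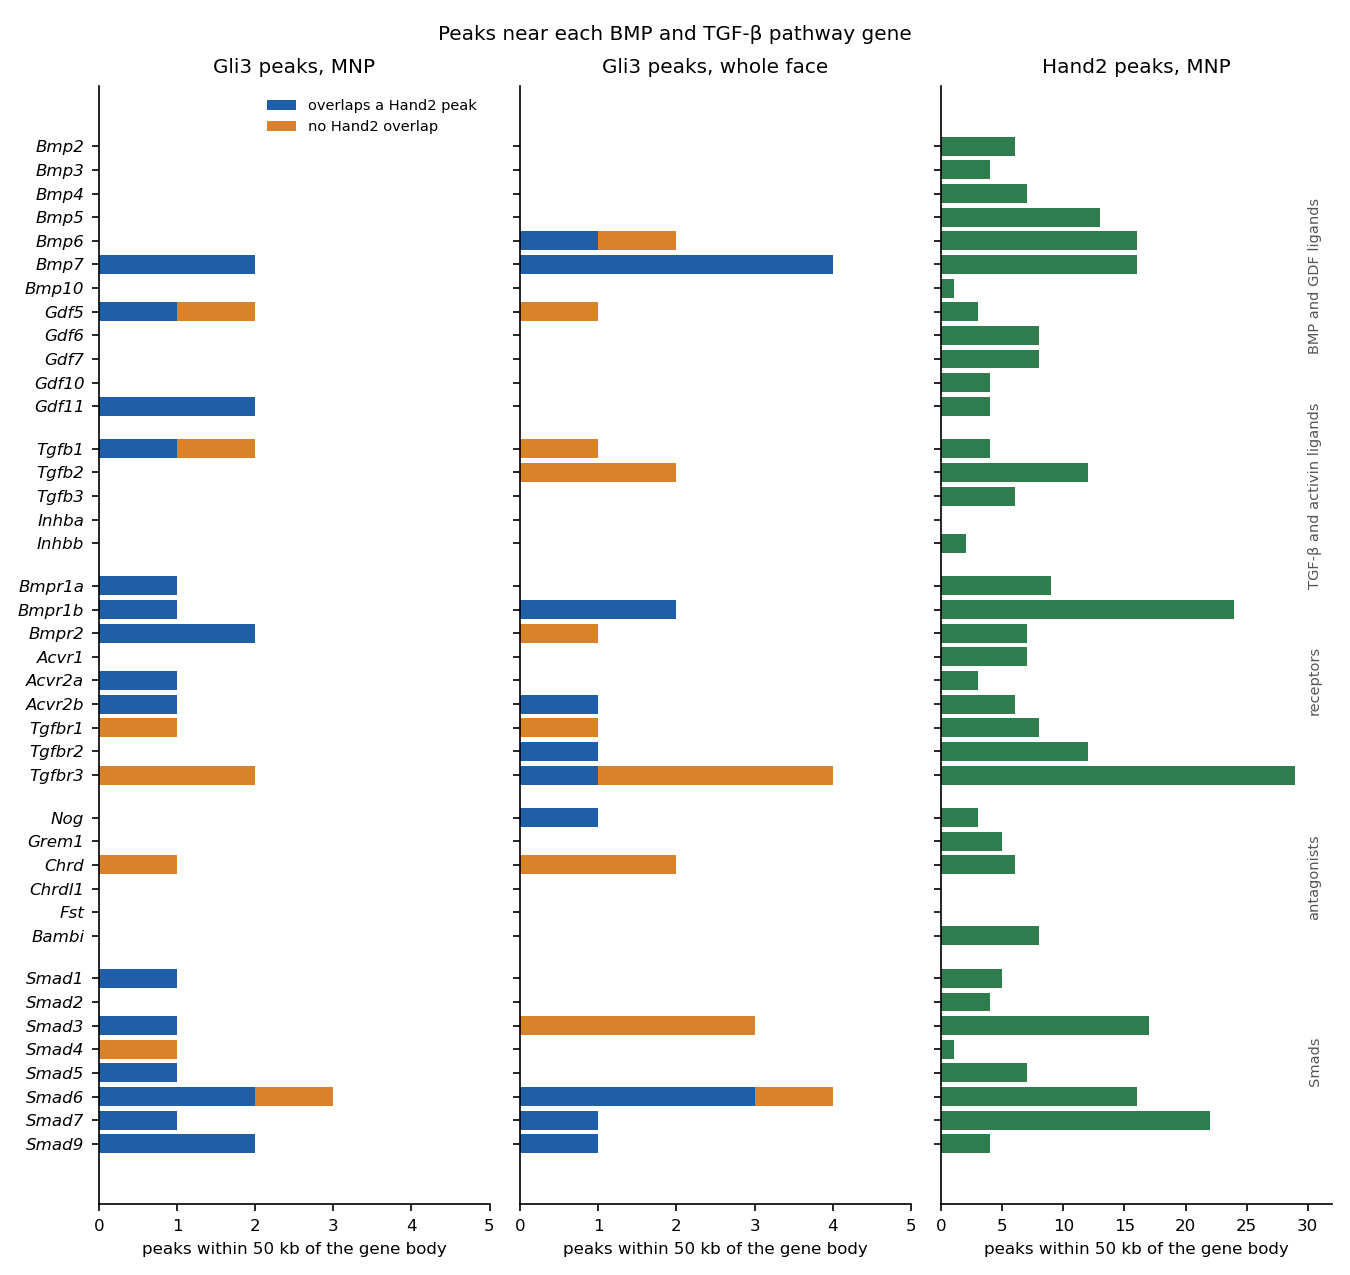
Number of peaks (x axis) within 50 kb of the body of each of the 40 genes (y axis, grouped by role), for Gli3 in the MNP, Gli3 in the whole face and Hand2 in the MNP. Blue Gli3 peaks overlap a Hand2 peak by at least 1 bp and orange ones do not. Gli3 counts reach 3 in the MNP, in Smad6, and 4 in the whole face, in Bmp7, Tgfbr3 and Smad6, while Hand2 counts reach 29 in Tgfbr3 and are 0 in Inhba, Chrdl1 and Fst; each bar is a count from merged replicates, with no error bar.

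The lists combined in 4 ways at these genes. Peaks of all 3 lists were near 13 genes, Bmp7, Gdf5, Tgfb1, Bmpr1b, Bmpr2, Acvr2b, Tgfbr1, Tgfbr3, Chrd, Smad3, Smad6, Smad7 and Smad9 (32.5%, other genes 23.1%). Hand2 peaks and Gli3 peaks of 1 list were near 10 (25%, other genes 27.8%). Hand2 peaks alone were near 14 (35%, other genes 31.8%), among them Bmp2, Bmp3, Bmp4, Bmp5, Grem1 and Bambi. The remaining 3, Inhba, Chrdl1 and Fst, had no peak of any list (7.5%, other genes 15.6%).

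Among the BMP and GDF ligands, every window held Hand2 peaks but few held Gli3. Hand2 peaks ranged from 1 to 16 over the 12 genes, with a median of 6.5. Gli3 peaks were near Bmp7, Gdf5 and Gdf11 in the MNP and near Bmp6, Bmp7 and Gdf5 in the whole face. That is 25% of the 12 in each list, against 43.3% and 32.7% of other genes. A Hand2 peak was near 82.6% of other genes. Bmp7, a ligand expressed widely in developing epithelia, had 2 Gli3 MNP peaks, 4 Gli3 whole-face peaks and 16 Hand2 peaks. All 6 of its Gli3 peaks overlapped Hand2, and none lay at its TSS. The whole-face peaks sat 18424 bp upstream and 6367, 52034 and 91325 bp downstream of the TSS, and the last 2 were also in the MNP list. Its 16 Hand2 peaks held 18 CAGATG words in 10 peaks.

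Bmp4, the ligand most often named in mandibular and tooth patterning, had 7 Hand2 peaks and no Gli3 peak in its window. Its closest Gli3 peaks were 62995 bp from the TSS in the whole face and 385072 bp in the MNP. Bmp2, a closely related ligand, had 6 Hand2 peaks and no Gli3 peak within 50 kb. The closest were at 83490 bp in the whole face and 83561 bp in the MNP, each beyond the window. Bmp5 and Bmp6 had 13 and 16 Hand2 peaks. Bmp6 had 2 whole-face Gli3 peaks, both intronic, at 81490 bp without Hand2 and with a cGBM, and at 132040 bp with Hand2 and without a cGBM. Bmp10, a ligand of the developing heart, had a lone Hand2 peak 16734 bp upstream.

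Gdf5, a ligand that marks developing joints, had 2 Gli3 MNP peaks. An intronic peak 1634 bp from the TSS was in both Gli3 lists and did not overlap Hand2. The other was at the TSS of the neighbouring gene Cep250. Gdf11, which acts in axial patterning, had 2 Gli3 MNP peaks, 18439 and 31751 bp upstream, and the TSSs closest to them belonged to Cd63 and Bloc1s1. No Gli3 peak in this window had Gdf11 as its nearest start site.

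The 5 TGF-β and activin ligands had 2 Gli3 MNP, 3 Gli3 whole-face and 24 Hand2 peaks in all. Tgfb1 had 2 Gli3 MNP peaks, 1 Gli3 whole-face peak and 4 Hand2 peaks. Its shared Gli3 peak lay 1526 bp from the TSS without Hand2, its other MNP peak was at the TSS of Hnrnpul1, and none of the 4 Hand2 peaks had Tgfb1 as the nearest TSS. Tgfb2 had 12 Hand2 peaks and 2 Gli3 peaks, both in the whole face only and both without Hand2, at 56024 and 88227 bp from its TSS. Tgfb3, known for its part in palate fusion, had 6 Hand2 peaks and no Gli3 peak. Inhba, which encodes the activin A subunit, had none of either, and its closest Hand2 peak was 72902 bp away.

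All 9 receptors had Hand2 peaks, and most had Gli3 peaks. Hand2 peaks numbered 3 to 29 over the 9 genes, and 82.6% of other genes had at least 1. Gli3 MNP peaks were near 7 (77.8%, other genes 43.3%) and Gli3 whole-face peaks near 6 (66.7%, other genes 32.7%). These shares are not corrected for window length, which was 133 to 432 kb in the receptors against a median of 117 kb in other genes. Tgfbr3, the co-receptor betaglycan, had the most Hand2 peaks of the 40 genes, 29, of which 24 were inside its body. It also had 2 Gli3 MNP and 4 Gli3 whole-face peaks, and just 1 of these 6 overlapped Hand2. Bmpr1b, a BMP type I receptor with a window of 432 kb, had 24 Hand2 peaks, a Gli3 MNP peak at its TSS and 2 intronic whole-face Gli3 peaks at 85070 and 248141 bp, all 3 Gli3 peaks overlapping Hand2. Bmpr1a, the other BMP type I receptor, had 9 Hand2 peaks and a Gli3 MNP peak 748 bp from its TSS. Bmpr2, the BMP type II receptor, had a TSS peak in both Gli3 lists. The MNP peak there was 1938 bp wide and overlapped Hand2, while the whole-face peak inside it was 236 bp wide and did not. Tgfbr1 and Tgfbr2, which form the TGF-β receptor pair, differed: Tgfbr1 had a TSS peak in both Gli3 lists without Hand2, and Tgfbr2 had no Gli3 MNP peak, a whole-face peak 120792 bp downstream with Hand2 and a cGBM, and 12 Hand2 peaks. Acvr1 had 7 Hand2 peaks and no Gli3 peak. The Gli3 MNP peak of Acvr2a was at the TSS of the neighbouring Mbd5.

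The 6 antagonist genes had 1 Gli3 MNP, 3 Gli3 whole-face and 22 Hand2 peaks in all. Nog, which encodes Noggin, had 3 Hand2 peaks and a whole-face Gli3 peak 3910 bp from its TSS that overlapped the Hand2 peak at 3817 bp. Grem1, which encodes Gremlin, had 5 Hand2 peaks, all 5 with CAGATG, and no Gli3 peak. Chrd, which encodes Chordin, had 6 Hand2 peaks and 3 Gli3 peaks, none overlapping Hand2, and all 3 Gli3 peaks were closer to the TSSs of Clcn2 or Polr2h. Bambi, a decoy receptor, had 8 Hand2 peaks, the same number as Gdf6, Gdf7 and Tgfbr1, and no Gli3 peak. Chrdl1 and Fst, which encode a Chordin-like protein and the activin trap Follistatin, had none, with the closest Hand2 peaks 50376 and 125794 bp away.

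Among the 8 Smads, 7 had a Gli3 MNP peak (87.5%, other genes 43.3%) and 4 a Gli3 whole-face peak (50%, other genes 32.7%). Their windows, of 128 to 211 kb, were also longer than the median of 117 kb in other genes, and the shares are not corrected for this. All 8 had Hand2 peaks (other genes 82.6%). Smad6, an inhibitory Smad, had 3 Gli3 MNP peaks and 4 Gli3 whole-face peaks, the most of the 40 genes together, and 16 Hand2 peaks. Its MNP peaks lay 36347 bp upstream, 978 bp downstream and 71487 bp downstream of the TSS, and each was matched by a whole-face peak. The first pair overlapped Hand2 and the last did not. Smad7, the other inhibitory Smad, had 22 Hand2 peaks in 128 kb. A Gli3 MNP peak of 4396 bp spanned its TSS and overlapped 4 Hand2 peaks, and the whole-face list had a separate intronic peak 6555 bp from the TSS.

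Smad3, a receptor Smad of the TGF-β branch, had different peaks in the 2 Gli3 lists. Its MNP Gli3 peak was at the TSS, 1859 bp wide, with Hand2 and without a cGBM. Its 3 whole-face Gli3 peaks, at 13902 bp upstream and at 22909 and 45012 bp downstream, were absent from the MNP list, did not overlap Hand2, and 2 of them held a cGBM. Smad9, a receptor Smad of the BMP branch, had a TSS peak of all 3 lists. Smad1 and Smad5, also of the BMP branch, each had a Gli3 MNP peak with Hand2 at the TSS and no whole-face peak. Smad4, the common partner, had a Gli3 MNP peak and a Hand2 peak, both within 1 kb of its TSS and not overlapping each other. Smad2, of the TGF-β branch, had 4 Hand2 peaks and no Gli3 peak.

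**Figure D2:**
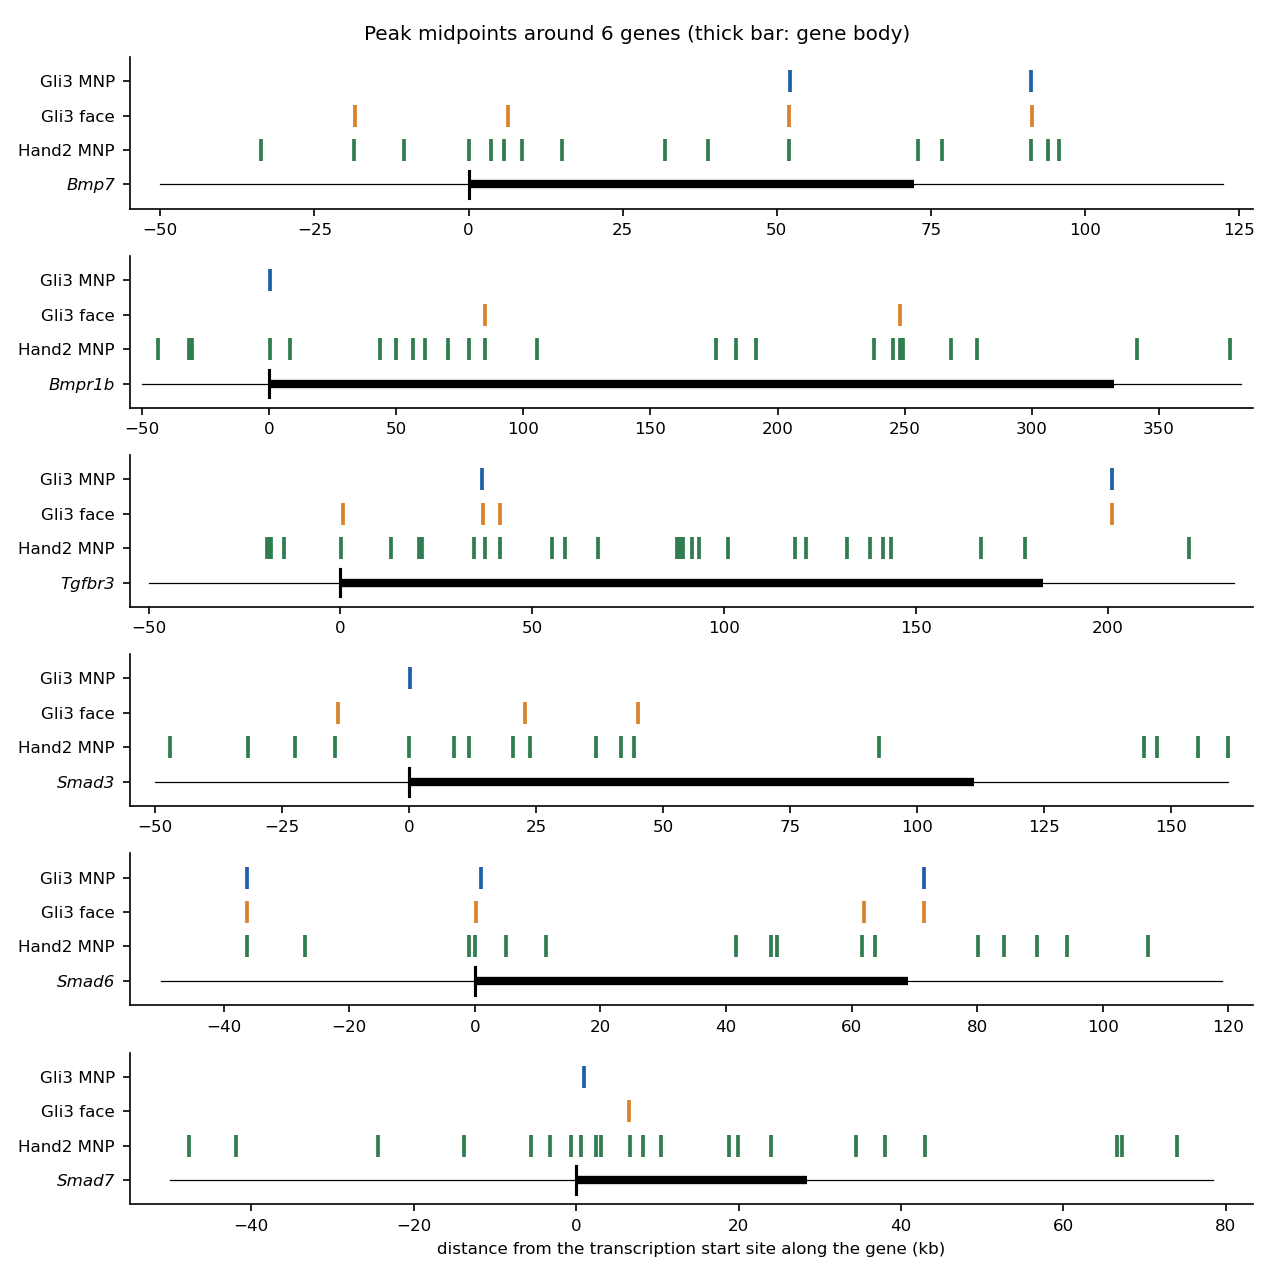
Midpoints of Gli3 MNP (blue), Gli3 whole-face (orange) and Hand2 MNP (green) peaks around 6 genes; the x axis is the distance in kb from the TSS along the gene's direction, on its own scale for each gene, the thick bar is the gene body and the thin line the 50 kb on each side. Smad3 and Bmpr1b show a Gli3 MNP mark at the TSS and whole-face marks elsewhere, while in Bmp7 and Smad6 the marks of the 2 Gli3 lists coincide at 52034 bp and 36347 bp among other places.

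The positions relative to each gene's own TSS separated the roles. This split of receptors and Smads from ligands and antagonists was made after the values were seen and is a description. A Gli3 MNP peak midpoint lay within 1 kb of the own TSS in 12 of the 40 genes (30%, interval 18.1 to 45.4), against 15.4% of other genes. All 12 were receptors or Smads: Bmpr1a, Bmpr1b, Bmpr2, Acvr2b, Tgfbr1, Smad1, Smad3, Smad4, Smad5, Smad6, Smad7 and Smad9. That was 12 of 17 receptors and Smads (70.6%, interval 46.9 to 86.7) and 0 of 23 ligands and antagonists (interval 0 to 14.3). In the whole face 5 genes had such a peak, Bmpr2, Tgfbr1, Tgfbr3, Smad6 and Smad9 (12.5%, other genes 5.35%), again with 0 of 23 ligands and antagonists. Hand2 peaks were at the own TSS of 24 genes (60%, other genes 30%), 16 of 17 receptors and Smads, with Tgfbr2 the exception, and 8 of 23 ligands and antagonists. At 500 bp in place of 1 kb, 6 of 17 receptors and Smads and 0 of 23 ligands and antagonists had a Gli3 MNP peak, which is 6 of the 40 genes (15%) against 12.5% of other genes. At 5 kb the counts were 12 of 17 and 2 of 23, Gdf5 and Tgfb1 (other genes 17.7%). With the start of any annotated transcript they were 12 of 17 and 1 of 23, Tgfb1 (other genes 17.3%).

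**Figure D3:**
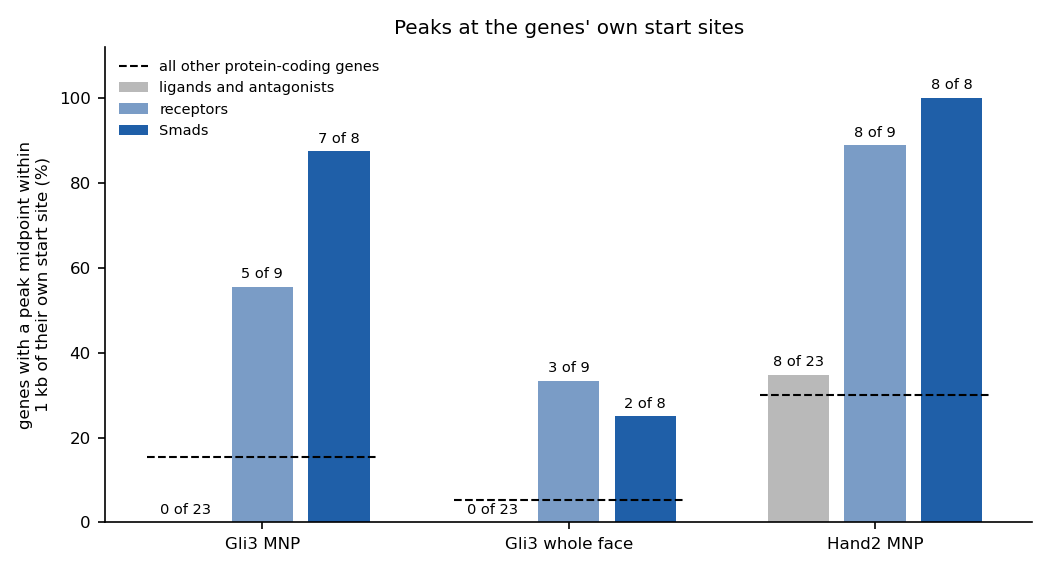
Percent of genes (y axis) with a peak midpoint within 1 kb of their own TSS, for 23 ligands and antagonists (grey), 9 receptors (light blue) and 8 Smads (dark blue) in each peak list; the dashed line is the percent of the other protein-coding genes. Gli3 MNP peaks are at 7 of 8 Smads, 5 of 9 receptors and 0 of 23 ligands and antagonists, and Hand2 peaks at 8 of 8, 8 of 9 and 8 of 23.

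Base composition moved with these peaks. GC content in the 1 kb around the TSS had a median of 68.4% in the 12 genes with a Gli3 MNP peak there and of 64.3% in the 28 without. Among other genes the medians were 61.5% and 53.3%. The medians of the roles also differed, at 68.8% in receptors and Smads and 62.7% in ligands and antagonists. At or above 55.3% GC, which is the lowest value of the 12 so that all of them pass by construction, 26.4% of other genes had a Gli3 MNP peak at the TSS, against 12 of 17 receptors and Smads and 0 of 17 ligands and antagonists. The part of base composition in the difference between roles was not tested.

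Gli words were rare in the promoters themselves. RefSeq promoter sequences (mm10, 250 bases before to 50 after the start) were at hand for 26 of the 40 genes, and 0 of the 26 held a cGBM or a dGBM, with 0.807% and 1.28% of 32851 promoters holding these words. CAGATG was in the promoter of 1 gene, Bmpr1b, and in 17.2% of all promoters. The absence says only that these letters are not in these windows.

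The 28 Gli3 MNP peaks and 32 Gli3 whole-face peaks near the pathway differed in kind. The MNP peaks were wide (median 628 bp) and GC-rich (median 64.4%), and 19 of 28 were within 1 kb of some TSS, 12 of them at the pathway gene and 7 at a neighbour. The whole-face peaks had a median width of 222 bp and a median GC of 52.6%, and 6 of 32 were at a TSS. The same contrast held in the whole lists, with 56.5% of MNP peaks and 18.8% of whole-face peaks at a TSS. The closest TSS was that of the pathway gene for 19 of 28 MNP peaks and 28 of 32 whole-face peaks. The 2 Gli3 lists were made separately, and a difference in tissue and a difference in peak calling cannot be told apart.

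The tissues shared 13 Gli3 places, 15 were in the MNP list only and 19 in the whole-face list only. Of the 15 MNP-only peaks, 14 were at a TSS, 14 overlapped Hand2 and 0 held a cGBM. In the whole list, 73.6% of MNP-only peaks were at a TSS, 61.2% overlapped Hand2 and 4.43% held a cGBM. An overlap needed only 1 bp. For all 28 MNP peaks the share with Hand2 was 10 percentage points above the list by that rule. It was -8.71 points with 50% of the peak covered and -2.99 with the midpoint in a Hand2 peak. The lone MNP-only peak without Hand2 was that at the Smad4 TSS, and the lone peak away from a TSS was that 18439 bp upstream of Gdf11. Of the 13 shared MNP peaks, 5 were at a TSS, 6 overlapped Hand2 and 4 held a cGBM, with 30%, 61.8% and 27.1% in the whole list. Of the 19 whole-face-only peaks, 1 was at a TSS, in Tgfbr3, 11 overlapped Hand2 and 6 held a cGBM, with 12.4%, 41.1% and 17.5% in the whole list. Away from promoters, 4 of 9 MNP peaks overlapped Hand2 (44.4%, whole list 58.5%), and 14 of 26 whole-face peaks did (53.8%, whole list 46.8%).

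**Figure D4:**
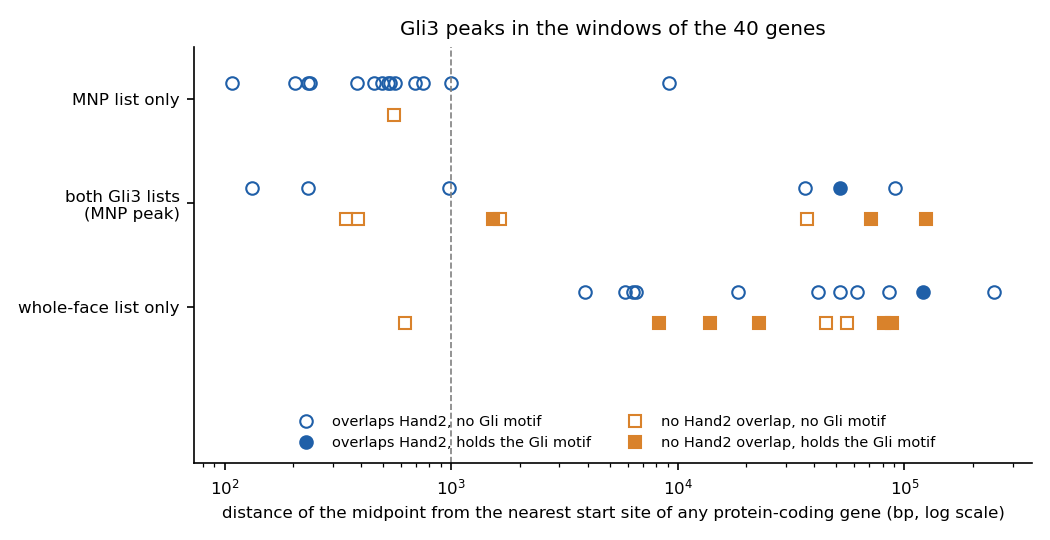
Distance in bp, on a log axis, from each Gli3 peak midpoint near the 40 genes to the nearest TSS of any protein-coding gene, for peaks of the MNP list only (15), of both lists (13, drawn at the MNP peak) and of the whole-face list only (19). Blue circles overlap Hand2, orange squares do not, and filled marks hold a cGBM; the dashed line is at 1000 bp. MNP-only marks lie left of the line with 1 exception and are all empty, whole-face-only marks lie right of it with 1 exception, and most filled marks are orange.

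The cGBM was found more often in the Gli3 peaks that Hand2 did not share. In the whole face, 8 of 16 peaks without Hand2 held it (50%, interval 28 to 72), against 2 of 16 with Hand2 (12.5%, interval 3.5 to 36). The whole whole-face list gave 26.6% and 12.3%. In the MNP the counts were 3 of 8 (interval 13.7 to 69.4) and 1 of 20 (interval 0.888 to 23.6), with 15.9% and 11.7% in the whole list. In each list the 2 intervals overlapped. All 4 MNP peaks with a cGBM were shared with the whole-face list, so the MNP counts repeat places already counted there. All 4 also lay away from promoters, as did only 9 of the 28 MNP peaks, 4 of these 9 with Hand2. The MNP counts therefore mix place with Hand2 overlap. The 8 whole-face peaks were those of Bmp6, Tgfb1, Tgfb2, Tgfbr3, Chrd and Smad6 and the pair of Smad3. The 2 with Hand2 were those of Bmp7 and Tgfbr2. The dGBM was in 3 of 20 MNP peaks with Hand2, in Bmp7, Smad1 and Smad6, and in 0 of 8 without (upper bound 32.4%), and the intervals overlapped. The whole MNP list gave 6.75% and 6.35%, and the whole-face list 5.3% and 6.96%.

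Hand2 peaks formed long runs at a few genes. Smad7 had 171 Hand2 peaks per Mb, Tgfbr3 102, Smad6 94.7, Bmp7 92.9, Smad3 80.5 and Gdf7 76.9, and these 6 genes passed the 95th percentile of other genes, 73.8 per Mb. Bambi was just under it at 73.7. The 90th percentile, 58.8 per Mb, was passed by 12 of the 40 genes (30%). At the low end Smad4 had 6.07 and Bmp10 9.2 per Mb. Both inhibitory Smads were among the densest genes, while the receptor Smads ranged from 23.6 in Smad2 to 80.5 in Smad3.

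**Figure D5:**
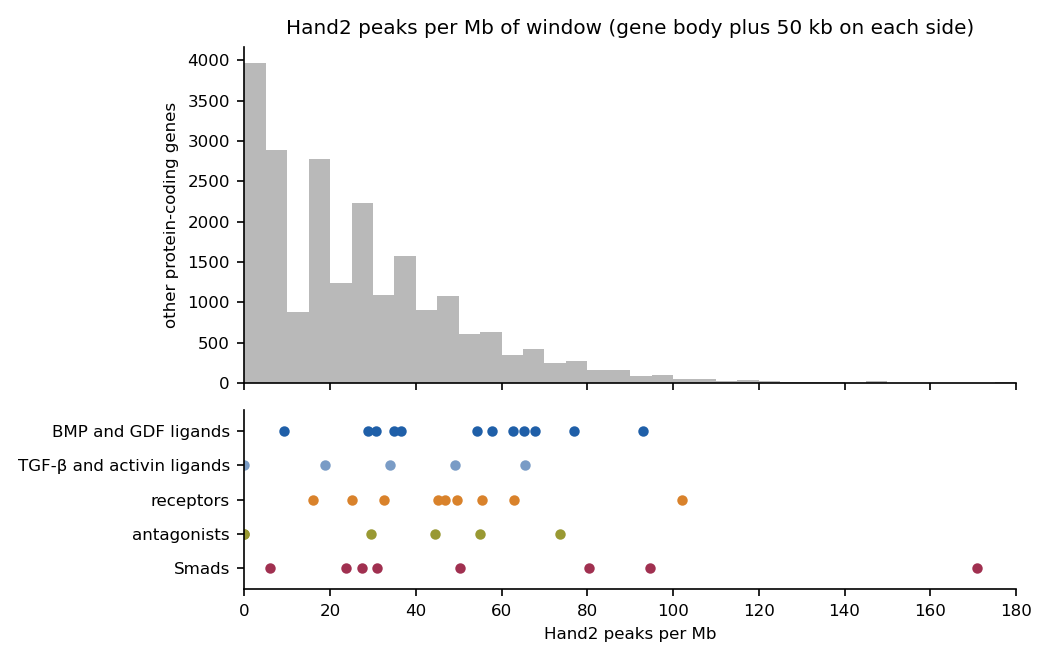
Hand2 peaks per Mb of window (x axis) for the 21911 other protein-coding genes, as a histogram in steps of 5 per Mb (top), and for the 40 genes by role, each a point (bottom). Smad7 stands furthest right at 171 per Mb, and the median of the 40 genes is 45.9 against 22.2 in the histogram.

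Of the 317 Hand2 peaks near the 40 genes, 179 were in introns, 32 in exons and 106 between genes, shares that were not computed for the whole list. At a TSS were 42 (13.2%, interval 9.95 to 17.4), against 10.8% of all Hand2 peaks, a share inside that interval. The pathway gene had the closest TSS for 252 of them. CAGATG was in 153 of 317 (48.3%, interval 42.8 to 53.8), against 47.1% of all Hand2 peaks, so the word was no more frequent here than elsewhere. It varied between genes. Bmpr1b had it in 15 of 24 peaks with 21 words in all, Tgfbr2 in 9 of 12 and Bmp7 in 10 of 16, whereas Bmpr1a had it in 1 of 9, Bmpr2 in 1 of 7, Gdf6 in 1 of 8 and Nog in 0 of 3. Gli3 peaks of the MNP overlapped 24 of the 317 Hand2 peaks and Gli3 peaks of the whole face 16. Most Hand2 peaks at the pathway, like most in the list, where 5.89% and 4.54% overlapped, lay apart from Gli3.

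Peak lists rest on the callers' thresholds, which the files do not show, and a gene without a peak is a gene without a listed peak. Windows also take in neighbours, so a peak in a window is not thereby assigned to that gene.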

How the data were processed

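Each deposited file is a merged list of peak positions, with start and end coordinates and no score, height, fold or p-value. Before deposit, the authors aligned 75 bp single-end reads to the mouse genome (build mm10, GRCm38) using BWA and combined replicate peaks using bedtools. The submitters' notes also name HOMER, and versions are not given. The entry names of the whole-face list refer to a mock ChIP and an input. The whole-face peak caller and depth are not given in the sources used here. Every entry names both replicates. The labels describe the molecule as polyA RNA, which was not used, and the series text gives an earlier embryonic stage than the labels.

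Protein-coding genes came from GENCODE vM21 (mm10). A peak was credited to a gene when its midpoint lay within 50 kb of the gene body, and it overlapped another list at 1 bp or more. A promoter peak had its midpoint within 1 kb of a gene's 5′ end (TSS). Shares carry Wilson 95% intervals (scipy 1.17.1), and no test was run. Named genes were the 3 with most Gli3 peaks and the 3 with most Hand2 peaks in each role, plus those without peaks. Others were named after their values were seen. The members and lists were chosen with earlier results of these data known. The scripts (Python 3.11.15, numpy 2.4.6, pyfaidx 0.9.0.4, matplotlib 3.10.9) were tested on simulated data. Promoters came from RefSeq. Alternatives are in the closing section.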

Additional observations from a re-analysis of the deposited data

How the results depend on the processing

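Of 114 recomputed values, 81 kept their direction and moved by no more than a set margin (the main share's interval half-width, wide with 40 genes, or 1.5 times for medians), 16 moved by more and 17 changed sign. The 81 include values from peaks that name both replicates, which all peaks do, so these could not move. They also include Gli3 median differences of 0 in both runs, which have no direction to keep. Values here are percentage points, 40 genes minus other genes, unless said otherwise. For Gli3 MNP peaks (4.23) the difference was -3.62 with windows of 100 kb, -0.312 without promoter peaks, 30.4 with the nearest gene on each side and 26 with the nearest TSS within 100 kb. The nearest gene on each side leaves out a gene whose body holds the midpoint. With Hand2 (7.74) it was -1.3 without promoter peaks, 0.424 with 50% of the peak covered and 29.4 with the nearest gene on each side. Without Hand2 (-4.56) it was 3.32 at 20 kb, 5.69 in gene bodies, 6.28 with the nearest gene on each side, 9.55 with the nearest TSS, 4.79 with 50% of the peak covered, 2.99 with the midpoint in a Hand2 peak and 2.13 without promoter peaks. For Gli3 whole-face peaks (9.84) it was 33.8 and 27.9 under the 2 nearest-gene rules, with Hand2 (8.27) 31.7 with the nearest gene on each side, and without Hand2 (3.49) 20.6 and 18.5. For Hand2 (9.85) it was 21.6 at 20 kb, 33.4 in gene bodies, 26.5 and 37.4 under the nearest-gene rules and 18.7 with only the wider peaks of the list, from its median width up. The median difference for whole-face Gli3 peaks was 1 peak at 100 kb (0 at 50 kb).

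Against the whole lists, the cGBM share of MNP peaks near the 40 genes (0.945) was 23 without promoter peaks. In Hand2 peaks the cGBM (-0.23) and dGBM (-0.239) differences were 0.364 and 0.265 in the middle 200 bp and 0.0798 and 0.139 without promoter peaks. The share of MNP peaks that overlap Hand2 (10 points above the list) was -8.71 with 50% covered, -2.99 by midpoint and -14.1 without promoter peaks. The own-TSS difference between roles (70.6), whose alternatives were chosen after seeing the data, was 35.3 at 500 bp. The causes were not tested. No paired analysis was possible because both replicates are merged in each list, and for the same reason no replicate could be left out. Depth is unknown, so a missing peak cannot be told from a peak below the callers' thresholds.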

Other observations

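The 52 further pathway genes, a list of other ligands, modulators, co-repressors and targets, were near Gli3 peaks at higher shares than the 40, a difference that was not tested. Gli3 MNP peaks were near 30 of 52 (57.7%), Gli3 whole-face peaks near 29 (55.8%) and Hand2 peaks near 51 (98.1%), all but Bmp15. The background shares, in which the 52 are counted, were 43.3%, 32.7% and 82.6%. Gli3 MNP peaks with Hand2 were near 26 of the 52 (50%, background 29.8%) and peaks without Hand2 near 20 (38.5%, background 22.1%). Many of these windows are crowded with other genes, and in those of Amh and Inha, with 5 and 3 Gli3 MNP peaks, 0 of these peaks had the listed gene as the nearest TSS.

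The Id genes, direct BMP targets that encode inhibitors of basic helix-loop-helix factors, had Gli3 peaks of both lists. Id1 had 5 Gli3 MNP peaks, 6 Gli3 whole-face peaks and 8 Hand2 peaks, Id2 had 3, 5 and 8, Id3 had 2, 4 and 9, and Id4 had 1, 2 and 5. All 3 Gli3 MNP peaks of Id2 and both of Id3 overlapped Hand2. The homeobox targets Msx1 and Msx2 had 9 and 11 Hand2 peaks, no Gli3 MNP peak and 1 whole-face Gli3 peak each. The co-repressors Ski and Skil differed, Ski having 0 Gli3 MNP and 3 whole-face peaks, all 3 with Hand2, and Skil 3 and 2. Among genes that store or release TGF-β, Ltbp1 had a TSS peak of all 3 lists and 20 Hand2 peaks, whereas Ltbp2 had 12 Hand2 peaks and no Gli3 peak. Among further antagonists, Bmper had 19 Hand2 peaks and no Gli3 peak, and Twsg1 had 2 Gli3 MNP peaks and 2 Hand2 peaks.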
